A study of Homo sapiens with 4 samples.

Results

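The keratin genes of SAS cells, an established line from a human squamous cell carcinoma of the tongue, were described on 4 Clariom D arrays. The genes were taken by name: every array row whose only gene symbol was KRT followed by a number and at most 1 of the letters A to C was a candidate, and the row with the highest mean signal stood for its gene. This gave 48 keratin genes from 49 rows, of 33458 genes in all. Another 7 of the 55 keratin genes in the RefSeq gene table, KRT6A, KRT6B, KRT15, KRT17, KRT81, KRT82 and KRT86, had no row with a single symbol and were not analysed here. The genes were chosen by name, and signal entered only the choice between the rows of KRT7, the one gene with a second row.

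The arrays compared cells stably carrying C6orf141 in the lentiviral vector pLVX-IRES-Neo (2 arrays) with their controls (2 arrays), to ask which transcripts differ when C6orf141 is overexpressed. The treatment protocol in the array labels says that the overexpressing cells were transfected with the construct and then selected with G418. The controls, SAS cells labelled scrambled control, have no construct named for them in the labels, nor is it said whether they went through G418, so selection and overexpression cannot be told apart. No source states whether arrays within a group stand for separate cultures or clones, so the p-values measure the spread between arrays, which may be technical. Signals are deposited log2 values, on which a difference of 1 is a 2-fold change.

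Keratins are the intermediate filament proteins of epithelial cells. A type I (acidic) and a type II (basic) keratin pair to build each filament, and epithelia are told apart by the pairs they make: KRT8 with KRT18 in simple epithelia, KRT5 with KRT14 in the basal layer of stratified epithelia, KRT4 with KRT13 in the upper layers of the oral lining, and KRT1 with KRT10 in the upper layers of skin. Type I genes lie together on chromosome 17 and type II genes on chromosome 12, except that type I KRT18 sits beside KRT8 at the edge of the chromosome 12 cluster. Here 26 of the 48 genes were on chromosome 17 and 22 on chromosome 12, and 27 were type I and 21 type II.

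The stretch just before the start site is a shared feature of these genes that the choice by name did not use. RefSeq promoters (GRCh38.p14) were matched for 33 of the 48 keratins. The letters TATAA on the gene's strand, starting between 40 and 20 bases before the start site, stood in 21 of the 33 (63.6%) and in 1372 of all 35116 promoter entries (3.91%). Counting ATAAA as well, a choice made after the sequences were seen and one that overlaps TATAA within TATAAA, gave 29 of 33 (87.9%) against 6.23%. The letters GGGCGG on either strand within 250 bases stood in 4 of 33 keratin promoters (12.1%) and in 42.6% of all, TGANTCA on either strand in 0 of 33 and 6.57%, and the median GC content was 44.4% against 58%. Such matches describe letters and are not measured binding sites. Shown, 5′ to 3′ with matched letters in capitals, are the 100 bases before the RefSeq start site of some matched keratins named below. KRT8, KRT5, KRT4 and KRT85 had clear signal in these cells, and KRT28, KRT38 and KRT74 had signal at the level of silent genes but passed an unadjusted test.
KRT8 (chr12:52926470-52926569, minus strand): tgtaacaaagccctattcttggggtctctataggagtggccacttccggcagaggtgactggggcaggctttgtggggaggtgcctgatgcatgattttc
KRT5 (chr12:52520395-52520494, minus strand): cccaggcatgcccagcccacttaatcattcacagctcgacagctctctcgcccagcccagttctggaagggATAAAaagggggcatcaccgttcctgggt
KRT4 (chr12:52814117-52814216, minus strand): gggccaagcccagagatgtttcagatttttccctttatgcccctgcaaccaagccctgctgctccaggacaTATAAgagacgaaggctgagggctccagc
KRT85 (chr12:52367482-52367581, minus strand): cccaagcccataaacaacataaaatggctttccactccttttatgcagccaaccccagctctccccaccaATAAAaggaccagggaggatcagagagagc
KRT28 (chr17:40799960-40800059, minus strand): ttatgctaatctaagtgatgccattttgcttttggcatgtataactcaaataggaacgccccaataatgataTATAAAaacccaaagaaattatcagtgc
KRT38 (chr17:41440984-41441083, minus strand): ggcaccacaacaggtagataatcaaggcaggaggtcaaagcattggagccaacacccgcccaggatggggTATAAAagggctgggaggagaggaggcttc
KRT74 (chr12:52573844-52573943, minus strand): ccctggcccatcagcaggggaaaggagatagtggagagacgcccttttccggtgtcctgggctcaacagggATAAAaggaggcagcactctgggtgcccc
The RefSeq entry matched to the simple epithelial KRT8 held neither motif in the searched window. Whether these cells start KRT8 transcripts at that site was not tested. KRT5, KRT85 and KRT74 held ATAAA without TATAA, and KRT4, KRT28 and KRT38 held TATAA. Among keratins with signal above the background level defined next, 5 of 11 matched promoters held TATAA, and among the others 16 of 22 did. With ATAAA counted as well, these became 10 of 11 and 19 of 22. Neither difference was tested. The matched set leans to keratins without signal, as 21 keratins were above that level and 27 were not. Of those above the stricter level given there, 4 were matched, of which 1 held TATAA and 3 held TATAA or ATAAA.

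A gene was called above background when its mean signal over the 4 arrays exceeded 5.81, the 95th percentile of the means of 400 olfactory receptor genes, most of which are silent outside the nose. By this level 21 of the 48 keratins (11 type II and 10 type I) and 16146 of the 33458 genes were above background. The keratin nearest above it had a mean of 6.15 and the nearest below it 5.55. A stricter level of 7.54, the 95th percentile of the means of 612 negative control rows on the array, was passed by 11 keratins, 7 of type II (KRT8, KRT5, KRT6C, KRT80, KRT85, KRT7 and KRT4) and 4 of type I (KRT18, KRT19, KRT23 and KRT16). The other 10 lay between the levels and are dim. Signals of different genes come from different probes, so bright and dim here describe array signal only. The order by mean signal in figures does not rank transcript levels between genes. In a culture, fewer cells with a transcript cannot be told apart from less RNA per cell.

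**Figure D1:**
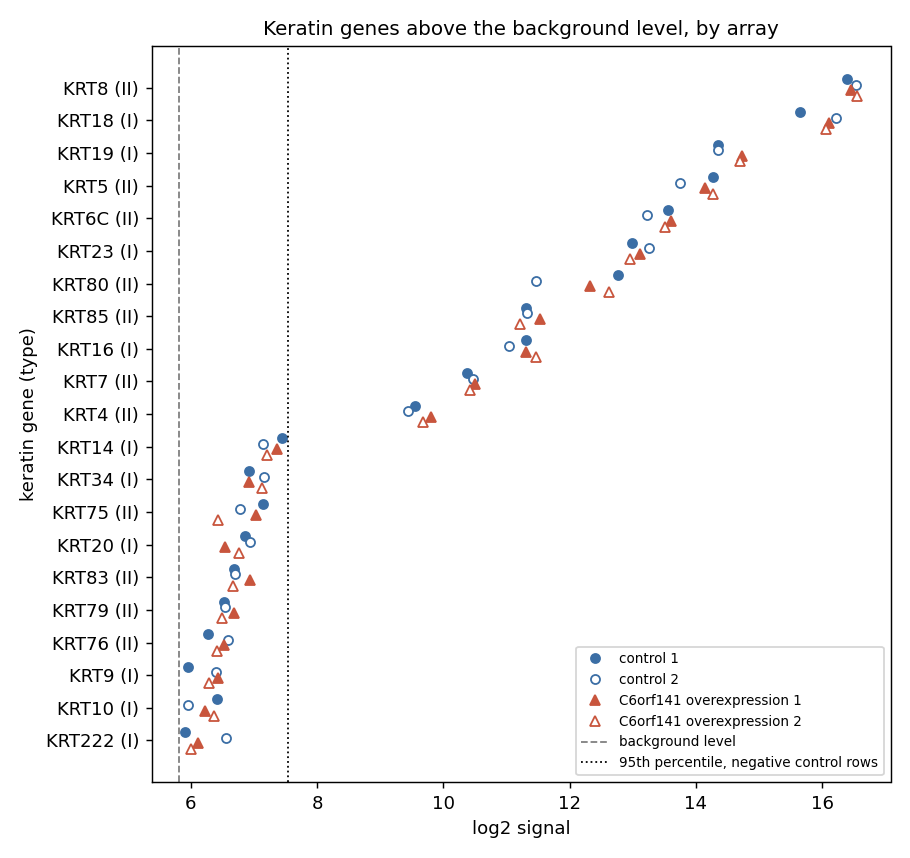
Log2 signal (horizontal axis) of the 21 keratin genes above background, ordered by mean signal with the type in brackets, 1 marker per array (circles for controls, triangles for overexpression, filled for array 1 and open for array 2); the dashed line is the olfactory receptor level (5.81) and the dotted line the negative control level (7.54). The second control array of KRT80 stands apart to the left, and 10 genes lie between the lines.

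The labels and the arrays were checked first. C6orf141 signal was 8.57 and 7.92 in the controls against 11.36 and 12.04 under overexpression, a log2 difference of 3.46 (SE 0.32, 10.97-fold; limma adjusted p = 0.214). Of the squamous epithelial markers measured, 10 of 10 were above background, as were 0 of 6 endothelial, 3 of 7 fibroblast (COL1A1, COL1A2 and FAP), 2 of 6 leukocyte (CD3E and CD68) and 1 of 4 melanocyte markers (MITF), and none of these markers differed between the groups at an unadjusted p of 0.05. The control arrays stood farther apart than the overexpression arrays: 433 of 16146 genes above background differed over 2-fold between the controls, against 43 between the overexpression arrays.

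No keratin differed between overexpression and control after adjustment over all genes in limma, as for all genes (0 of 33458, 0%). At an unadjusted p of 0.05, 4 of 48 keratins were higher and 1 was lower, where the background was 1.04% of all genes higher and 1.07% lower. All 5 lay at or below the background level, where 3.24% of all genes passed. Of the 21 keratins above it 0 passed, against 0.898% of all genes above it. The test run on the arrays is not named in the methods. Student's test, which they name for clinical comparisons and which is called the methods' t-test here, gave 2 keratins higher (KRT19 and KRT38; 1.95% of all genes) and 1 lower (KRT24; 2.12%), of which only KRT19 was above background, and none after Benjamini-Hochberg adjustment. The 2 groups did not overlap, higher under overexpression, in 13 of 48 keratins (14.3% of all genes) and, lower, in 5 (15.1%). Above background this held for 2 of 21 higher (12.6% of genes) and 1 of 21 lower (15%). These were KRT19 and KRT4, which had clear signal, and the dim KRT20. At or below background it held for 11 of 27 keratins higher (15.9% of genes there) and 4 of 27 lower (15.2%), on signals where a difference cannot be read as a change in transcript. The median log2 difference was 0.05 over the 48 keratins and 0.07 over the 21 above background, and 0.00 over all genes.

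The precision bounds these statements. Even C6orf141, which had the lowest p of the 33458 genes, had an adjusted p of 0.214 in limma. That no keratin passed adjustment therefore does not show that none changed. The smallest log2 difference that passed an unadjusted p of 0.05 in any gene was 0.51 (1.43-fold) in the limma fit; other estimates of the spread called smaller ones, as given for KRT19. The median SE of the difference over the keratins was 0.23. For the 21 keratins above background the 95% intervals of the log2 difference lay within −0.88 and 1.29, with the upper bound set by KRT80.

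**Figure D2:**
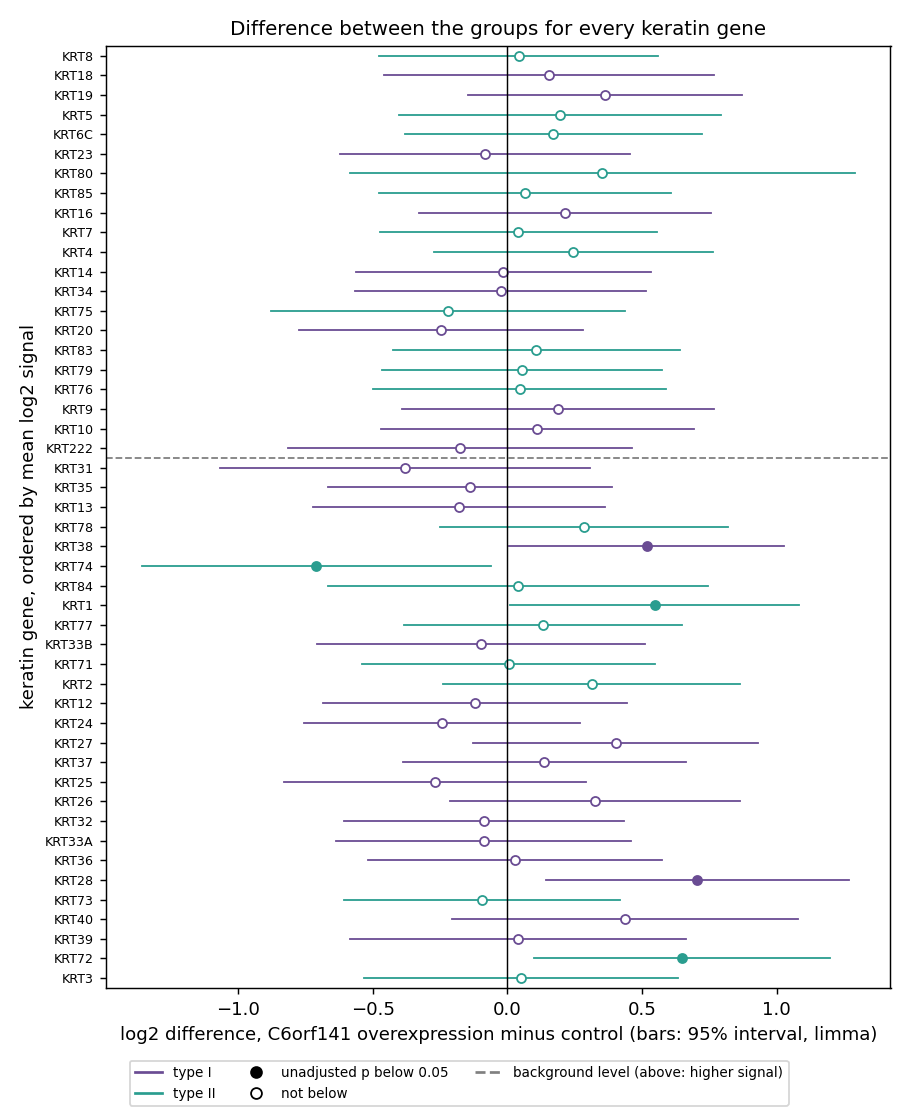
Log2 difference, overexpression minus control, of all 48 keratin genes as points with 95% intervals from limma, ordered by mean signal, with type I in purple, type II in green and filled points for an unadjusted p below 0.05; genes above the dashed line are above background. Intervals of all 21 keratins above background cross 0, the 5 filled points lie among the 27 others, and the interval of KRT80 is the widest.

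The simple epithelial keratins KRT8, KRT18, KRT7, KRT19 and KRT20 were all above background. KRT8, the type II member of the first keratin pair made in the embryo, had signals of 16.39 and 16.53 in the controls and 16.45 and 16.55 under overexpression. Its partner KRT18 had 15.64 and 16.22 in the controls and 16.11 and 16.05 under overexpression. For both genes the groups overlapped, with log2 differences of 0.04 (95% interval −0.48 to 0.56) and 0.16 (−0.46 to 0.77), and for KRT18 the first control array was the low one.

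KRT19, the small type I keratin that lacks most of the tail domain and marks ducts and simple epithelia, had signals of 14.36 and 14.35 in the controls and 14.74 and 14.70 under overexpression. Both overexpression arrays were above both controls and the arrays of each group lay within 0.04 of each other. The log2 difference was 0.36 (SE 0.22, 1.29-fold), with an unadjusted p of 0.138 in limma, whose prior spread of 0.25 is far wider than the spread of this gene. With limma's trend and robust settings the unadjusted p was 0.0273 and with the methods' t-test 0.003, neither past adjustment, so whether KRT19 is called turned on how the spread was estimated. It was the bright keratin with the lowest p, and its difference was between 0.34 and 0.38 with any single array left out.

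KRT7, a type II keratin of glands and ducts, had 10.37 and 10.47 in the controls and 10.50 and 10.42 under overexpression, and the groups overlapped. It was the only keratin with a second row, which was dim and had a log2 difference of −0.16; the mean of both rows gave −0.06 in place of 0.04, so no direction is given. KRT20, the keratin of intestinal lining, umbrella cells of the bladder and Merkel cells, was dim, with 6.85 and 6.94 in the controls and 6.54 and 6.76 under overexpression. Both of its overexpression arrays were below both controls, but the difference of −0.25 did not pass the test (unadjusted p = 0.31).

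Of the basal pair, KRT5 had signals of 14.27 and 13.75 in the controls and 14.14 and 14.27 under overexpression. Its partner KRT14, which with KRT5 is mutated in the blistering disease epidermolysis bullosa simplex, had 7.45 and 7.15 in the controls and 7.37 and 7.20 under overexpression. The groups overlapped for both, with log2 differences of 0.20 (−0.40 to 0.79) and −0.02 (−0.56 to 0.53), and KRT14 turned to 0.01 under quantile normalization. KRT14 was below the negative control level on all 4 arrays, and KRT5 was above it. Their rows come from different probes, so the levels of the partners were not ranked against each other.

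The keratins of stressed and healing epithelium were represented by KRT6C and KRT16. KRT16, a type I keratin induced at wound edges, had 11.31 and 11.04 in the controls and 11.31 and 11.47 under overexpression. KRT6C, a close copy of KRT6A and KRT6B, had 13.56 and 13.22 in the controls and 13.61 and 13.51 under overexpression. Their groups overlapped, with differences of 0.21 and 0.17, and for both the second control array was the lowest of the 4. Whether the KRT6C row takes up transcripts of KRT6A and KRT6B was not tested.

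Of the keratins of the upper oral mucosa, KRT4 was bright and its partner KRT13 was not above background. KRT4, a type II keratin of the moist lining epithelia, had 9.55 and 9.44 in the controls and 9.80 and 9.68 under overexpression. Both overexpression arrays were above both controls, by a log2 difference of 0.24 (SE 0.22, unadjusted p = 0.305). KRT13, which with KRT4 is mutated in white sponge nevus of the mouth, had 5.50, 5.20, 5.23 and 5.12 in the same order of arrays, all below 5.81. KRT76, a keratin of the hard palate and gum, was dim with a mean of 6.45 and a difference of 0.05, and KRT78 was below background.

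The 5 skin suprabasal keratins were dim or at background. KRT10, the type I keratin of the upper layers of epidermis, had 6.41 and 5.96 in the controls and 6.22 and 6.37 under overexpression, and the groups overlapped. KRT9, known from palms and soles, lay between 5.95 and 6.43 over the 4 arrays. KRT1, the partner of KRT10, had 4.63 and 4.36 in the controls and 4.98 and 5.11 under overexpression, below 5.81 on every array. Its log2 difference of 0.55 (unadjusted p = 0.0466, adjusted p = 1) therefore compares signals of the size seen in genes taken as silent, and no fold is given for it or for the other keratins at background. KRT2 and KRT77 were at background as well.

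Some further keratins with clear signal fall outside these layers. KRT80, a type II keratin made by many epithelia, had signals of 12.77 and 11.46 in the controls and 12.31 and 12.62 under overexpression. The second control array stood alone at the low end, 1.31 below the first, and both overexpression arrays lay between the controls. KRT80 was the only one of the 21 keratins above background to differ over 2-fold between the controls (2.68% of genes above background did), and 0 of 21 did so between the overexpression arrays. Its log2 difference was 0.35 (SE 0.40) with all arrays, 1.01 without the first control (unadjusted p = 0.0104) and −0.30 without the second, so its direction depended on which control array was used.

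KRT23, a type I keratin of several simple epithelia, had 12.99 and 13.25 in the controls and 13.12 and 12.96 under overexpression, with overlapping groups and a difference of −0.08. The dim KRT75, of the companion layer around the hair, had a difference of −0.22, KRT79 one of 0.05 and KRT222 one of −0.18, each with overlapping groups.

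Hair and hair sheath keratins were at background or dim, except KRT85. KRT85, a type II keratin of the hair matrix and cortex, had signals of 11.30 and 11.32 in the controls and 11.53 and 11.22 under overexpression, above the negative control level on every array and with a difference of 0.07. The hair keratins KRT34 and KRT83 were dim, with means between the 2 levels, and the remaining 11 of 14 hair keratins were at or below background. KRT38, a type I hair keratin among these, had 4.76 and 4.78 in the controls and 5.34 and 5.24 under overexpression. Its log2 difference was 0.52 (limma unadjusted p = 0.0483), with every array below the background level. Other hair keratins resemble KRT85 in sequence, and their part in its signal was not tested.

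All 8 keratins of the inner root sheath, the layers that mould the growing hair, were at or below background. KRT28 had 3.48 and 3.08 in the controls and 3.97 and 4.004 under overexpression (difference 0.71, unadjusted p = 0.0201). KRT72 had 2.50 and 2.75 in the controls and 3.15 and 3.40 under overexpression (difference 0.65, unadjusted p = 0.0263). KRT74 went the other way, with 4.98 and 5.66 in the controls and 4.60 and 4.62 under overexpression (difference −0.71, unadjusted p = 0.0357). The groups did not overlap in 7 of these 8 genes, 4 higher and 3 lower under overexpression, where 31.1% of all genes at or below background did not overlap (15.9% higher and 15.2% lower). The corneal pair KRT3 and KRT12 was at background on every array.

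Each of the 5 unadjusted calls among silent keratins was lost with some array left out. Without the first control array KRT1, KRT28 and KRT74 passed with KRT80; without the second control KRT72 with KRT31; without the first overexpression array KRT72 with KRT40; and without the second overexpression array none did.

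Partners of the known pairs were set side by side, and no partner above background passed the test. Type II KRT7 and KRT5 had differences of 0.04 and 0.20, and their type I counterparts KRT19 and KRT14 of 0.36 and −0.02. By type, 10 of the 11 type II keratins above background had a positive difference and 5 of the 10 type I keratins did, where 49.3% of all genes above background did. The type II count was 10 again without the second overexpression array, 7 without either control array and 6 without the first overexpression array, and 9 when the rows of a gene were averaged, so it depended on single arrays. Along both clusters, keratins with signal stood among keratins at background.

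**Figure D3:**
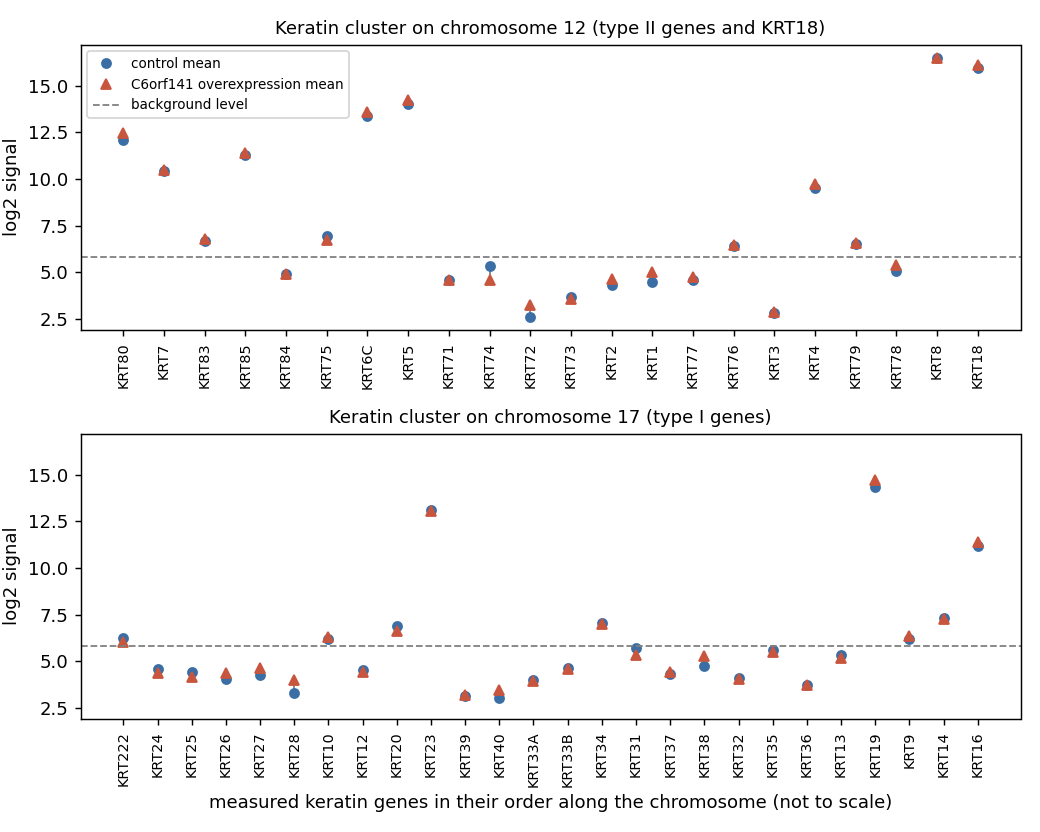
Mean log2 signal of each keratin gene in the controls (circles) and under overexpression (triangles), in gene order along the clusters on chromosomes 12 and 17 (not to scale), with the background level (5.81) dashed. KRT8 and KRT18 stand side by side with high signal at the edge of the chromosome 12 cluster, and runs of hair and sheath keratins lie below the line.

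The spread between arrays of a group was larger in the controls for 14 of the 21 keratins above background (66.7%) and for 66.3% of all genes above it. The largest gap between control arrays was 1.31 (KRT80) and between overexpression arrays 0.61 (KRT75). The second control array was the lowest of the 4 for 8 of the 21 keratins and the highest for 6, so it did not shift all keratins one way.

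**Figure D4:**
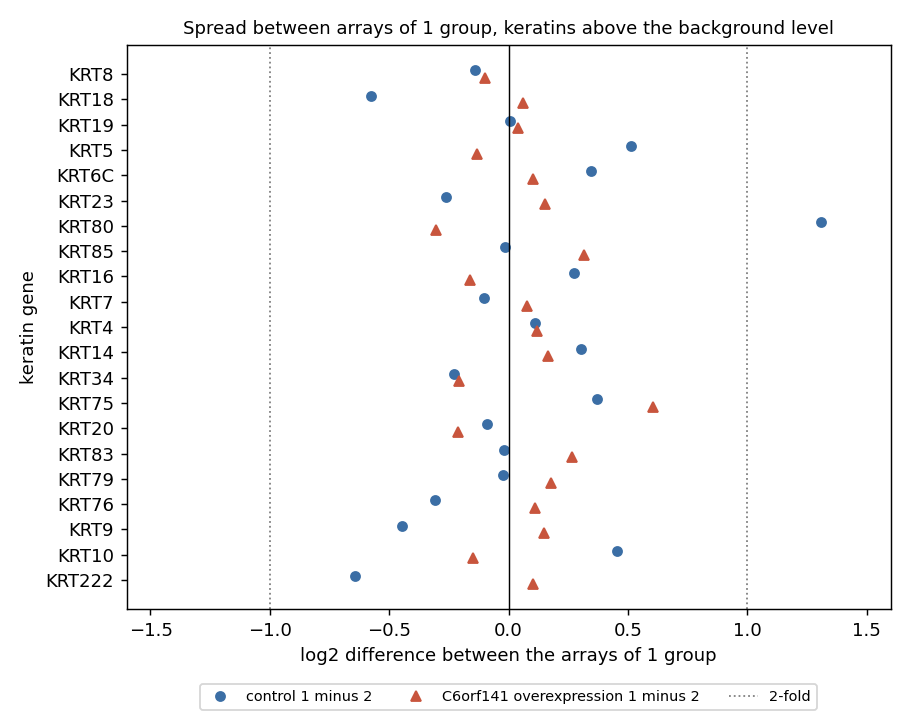
Log2 difference between array 1 and array 2 of the controls (circles) and of overexpression (triangles) for the 21 keratins above background, with dotted lines at a 2-fold difference. The control difference of KRT80 (1.31) lies past the line, and every other one lies inside the lines.

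Partner proteins of the keratin network were read from lists of genes. Of 17 genes that anchor, cross-link or remodel keratin filaments, 14 were above background, and 1 of 17 was higher at an unadjusted p of 0.05 (1.04% of all genes), FLG (filaggrin, which bundles keratin in skin), at background level (difference 0.67, unadjusted p = 0.0453); the median difference was 0.08. JUP, plakoglobin of the desmosome, had 14.58 and 13.47 in the controls and 14.52 and 14.83 under overexpression, with the second control low as for KRT80 (difference 0.65, unadjusted p = 0.114). PLEC, plectin, which ties keratins to the hemidesmosome, had 12.54 and 12.36 in the controls and 12.73 and 12.97 under overexpression (difference 0.40, unadjusted p = 0.123), with no overlap. Of the 15 other intermediate filament genes 5 were above background and none passed; their median difference was 0.09. The smallest p among these was that of LMNA, lamin A/C of the nuclear envelope, with a difference of 0.42 (unadjusted p = 0.128).

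Keratin pseudogenes show where rows of the array can share sequence with keratins. Of 124 pseudogenes 60 were above background, 25 of the 48 named for KRT8 and 23 of the 49 named for KRT18 among them, and their median difference was 0.02. At an unadjusted p of 0.05, 1 of the 124 was higher (KRT8P17, 0.80) and 1 lower (KRT126P, −0.72), against 1.04% and 1.07% of all genes, and both had means below background (4.158 and 5.598). KRT17, a type I keratin of wounded and cancerous epithelium, had no row of its own, but 6 of the 7 pseudogenes named for it were above background. The groups did not overlap, higher under overexpression, in 4 of these 6 and in 12.6% of all genes above background. Among the pseudogenes above background named for KRT8, KRT18 and KRT16, this held for 3 of 25, 4 of 23 and 1 of 5. Over all 124 pseudogenes, above background or not, this held for 22 (14.3% of all genes), and 9 were lower without overlap (15.1% of all genes). KRT17P1 had 15.50 and 15.38 in the controls and 15.83 and 15.73 under overexpression, and KRT17P6 had 13.57 and 13.61 in the controls and 14.04 and 13.88 under overexpression. Their differences were 0.34 and 0.37, which limma did not call at an unadjusted p of 0.05 and the methods' t-test did (unadjusted p = 0.0457 and 0.0485). Whether these rows share probe sequence with one another, and whether their signal comes from KRT17 itself, was not tested.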

How the data were processed

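Gene expression was measured on 4 Clariom D arrays of SAS cells. The authors deposited 1 log2 value per row and array, prepared with the WT PLUS reagent and, per the labels, Expression Console; the methods name Partek at p below 0.05. The summarising algorithm, normalization, build and versions were not given in the sources used here. Array number limits the precision.

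Of 138745 rows, 2995 array controls were left out. Of the others 36176 had 1 symbol, 1119 several and 98455 none here; 25516 were matched to RefSeq (GRCh38.p14) by gene number and 623 symbols were updated. The two-sided limma test (version 3.58.1, R 4.3.3; lmFit, then eBayes) was fitted over 135750 rows, with Benjamini-Hochberg adjustment over 33458 genes, each by the row with the highest mean. The steps were tested on simulated data. Figures were drawn with matplotlib 3.10.9.

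The named genes were all keratins above background, those past the unadjusted threshold of 0.05, members of known pairs and the genes with the smallest p in each partner list. Members, lists and tests were chosen with earlier results of these data known. Alternatives were the methods' t-test (Student's, named in the methods for clinical data only; which test Partek ran is not stated), limma with trend and robust variance, quantile normalization, median centring, averaging the rows of a gene, genes above background only, other background levels, leaving out arrays singly, and a block for replicate number.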

Additional observations from a re-analysis of the deposited data

How the results depend on the processing

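The 4 keratins higher at an unadjusted p (1.04% of all genes) became 3 with trend and robust settings (KRT19, KRT28 and KRT72). KRT1 and KRT38 were lost there (unadjusted p = 0.0617 and 0.0642 in limma). The count was 2 with the methods' t-test (1.95% of all genes), 2 with the replicate number as a block and 0 among genes above background only. The 1 lower (1.07% of all genes) became 0 among genes above background only. Shares of all genes are not given here for the trend and robust settings, the block or the fit above background only. For these settings a change in the keratins cannot be told apart from a change in the overall call rate. No keratin passed the adjusted threshold under any alternative. In place of the olfactory receptor level, keratins above background numbered 16 with a level from keratin-associated protein genes (6.70) and 11 with the negative control level. The median difference lay between 0.0094 and 0.103 over all keratins, and between 0.042 and 0.131 over those above background, with 1 array left out.

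Same-numbered arrays did not deviate together (r = −0.27 over genes above background and −0.11 over all genes). Each group gave only a single difference between its arrays, so r cannot decide whether the numbers pair the arrays. The block for replicate number left KRT28, KRT72 and KRT74 called.

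Of the 15 other intermediate filament genes, 1 was higher with trend and robust settings and 2 lower with the methods' t-test (2.12% of all genes). Their median was −0.049 above background and −0.0066 to 0.128 with 1 array left out. The linker genes gave 0 higher with the methods' t-test (1.95% of all genes) and above background, and medians of 0.022 to 0.096 with 1 array left out. The pseudogenes gave 3 higher with trend and robust settings, 4 with the methods' t-test and 0 above background; 0 lower with the last 2 settings; and 0 to 6 higher, 0 to 1 lower and medians of −0.031 to 0.122 with 1 array left out.

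KRT14 turned to 0.0051 with quantile normalization and KRT7 to −0.057 with averaged rows. Directions turned with 1 array left out for 19 of 30 named keratins: KRT18 −0.13 to 0.44, KRT80 −0.30 to 1.01, KRT85 −0.092 to 0.22, KRT75 −0.52 to 0.082, KRT6C −0.0016 to 0.34, KRT5 −0.061 to 0.45, KRT76 −0.11 to 0.20, KRT79 −0.035 to 0.14, KRT8 −0.028 to 0.11, KRT7 −0.0101 to 0.091, KRT83 −0.024 to 0.24, KRT10 −0.12 to 0.34, KRT23 −0.21 to 0.049, KRT9 −0.035 to 0.41, KRT14 −0.17 to 0.14, KRT222 −0.50 to 0.15, KRT34 −0.14 to 0.091, KRT3 −0.13 to 0.24, KRT12 −0.29 to 0.057. For the other 11 they did not.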
